A study of Mus musculus with 7 samples.

Results

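Hspa1a-high cells are those muscle stem cells (MuSCs, or satellite cells) of both homeostatic MuSC libraries in which Hspa1a and Hspa1b, the stress-inducible Hsp70 genes, made up at least 0.3% of the cell's unique molecular identifiers (UMIs, counts of distinct RNA molecules). A cell was considered if it had at least 500 detected genes, at most 10% UMIs of mitochondrially encoded genes, at least 1 UMI over Cdh15, Des, Myf5, Myod1 and Chrdl2, and 0 UMIs of Ptprc and Pecam1. The rule found 122 such cells among 1197 in homeostatic MuSC 1 and 36 among 985 in homeostatic MuSC 2, which is 158 of 2182 cells and 158 of the 15474 barcodes of the series. The other 1075 and 949 cells of the same libraries are called the remaining cells. Because Hspa1a, Hspa1b and the filter genes chose the cells, their levels are a description only.

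The study profiled single cells of mouse skeletal muscle with a droplet 3' kit in 7 libraries of strain C56BL/6J, as the labels spell it. Homeostatic MuSCs were isolated by fluorescence-activated sorting, with no injury, age or sex given, and nearly all comparisons below are within these 2 libraries. Total muscle (2 libraries) holds live cells of all types from digested hindlimbs of wild-type mice aged 3 months. Injured MuSCs (2 libraries) came from the TE-EDL muscles, as the labels spell them, at 60 h after 2 µM of the myotoxin notexin. Primary myoblasts (1 library) were sorted satellite cells of wild-type hindlimbs at 3 months, passaged on collagen with bFGF, horse serum, penicillin and streptomycin. The labels do not say how many mice each library holds, nor whether the libraries come from separate mice. The spread behind the p-values may therefore be technical. It came from these few libraries and was largely pooled over all genes.

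Heat shock factor 1 (HSF1) is the transcription factor of the heat shock response. It trimerizes when proteins misfold and binds heat shock elements, inverted repeats of nGAAn, in the promoters of chaperone genes. The inducible Hsp70 proteins bind exposed hydrophobic stretches, J-domain proteins deliver clients and stimulate the ATPase of Hsp70, and nucleotide exchange factors such as Hsph1 and Bag3 release them. Satellite cells are the Pax7-positive stem cells of muscle, quiescent at rest, and on activation they raise Myod1 and ribosome production.

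The 2 genes behind the rule lie close together on chromosome 17, and their promoters are shown because the rest of the results is set against them. RefSeq windows (GRCm38.p6) of the 250 bases before the annotated start are printed 5′ to 3′ on the gene's strand, in lower case, with every GAANNTTC or TTCNNGAA in capitals. These 8-letter strings are 2 adjoining nGAAn units, read the same on both strands, and can overlap each other. The windows of Hspa1a (chr17:34972157-34972406, minus strand) and Hspa1b (chr17:34959239-34959488, minus strand) differ at 3 of 250 positions and hold 1 such string each, which begins 104 bases before the start. Those of Hspb1 (chr5:135887669-135887918, plus strand), Hsph1 (chr5:149636337-149636586, minus strand) and Hspe1 (chr1:55087898-55088147, plus strand) are shown for their strings, and Dnajb1 (chr8:83607925-83608174, plus strand) because it had the largest difference of the chaperone genes. All were chosen after their values were seen.
Hspa1a: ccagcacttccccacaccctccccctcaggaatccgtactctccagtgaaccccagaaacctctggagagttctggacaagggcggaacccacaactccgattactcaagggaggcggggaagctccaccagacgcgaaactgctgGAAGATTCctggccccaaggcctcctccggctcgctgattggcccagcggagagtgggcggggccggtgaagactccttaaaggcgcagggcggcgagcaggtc
Hspa1b: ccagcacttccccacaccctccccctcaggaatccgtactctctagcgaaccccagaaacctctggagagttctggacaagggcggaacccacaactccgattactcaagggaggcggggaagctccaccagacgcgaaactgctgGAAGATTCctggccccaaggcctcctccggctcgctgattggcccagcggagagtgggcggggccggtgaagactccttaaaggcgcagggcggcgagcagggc
Hspb1: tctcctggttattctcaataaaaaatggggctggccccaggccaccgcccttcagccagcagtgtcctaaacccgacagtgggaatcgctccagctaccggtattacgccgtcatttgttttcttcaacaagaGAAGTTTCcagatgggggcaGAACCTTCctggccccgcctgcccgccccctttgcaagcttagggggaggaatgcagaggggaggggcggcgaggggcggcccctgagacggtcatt
Hsph1: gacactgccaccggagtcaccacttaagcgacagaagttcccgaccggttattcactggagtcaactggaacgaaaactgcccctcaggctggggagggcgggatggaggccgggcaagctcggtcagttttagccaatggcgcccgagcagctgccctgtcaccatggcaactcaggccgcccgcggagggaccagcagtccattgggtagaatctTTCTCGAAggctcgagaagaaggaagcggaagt
Hspe1: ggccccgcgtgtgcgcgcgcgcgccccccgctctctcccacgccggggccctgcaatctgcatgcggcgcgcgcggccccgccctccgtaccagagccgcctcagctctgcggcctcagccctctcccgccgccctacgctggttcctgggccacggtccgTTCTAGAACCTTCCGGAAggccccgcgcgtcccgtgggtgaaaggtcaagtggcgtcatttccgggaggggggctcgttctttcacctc
Dnajb1: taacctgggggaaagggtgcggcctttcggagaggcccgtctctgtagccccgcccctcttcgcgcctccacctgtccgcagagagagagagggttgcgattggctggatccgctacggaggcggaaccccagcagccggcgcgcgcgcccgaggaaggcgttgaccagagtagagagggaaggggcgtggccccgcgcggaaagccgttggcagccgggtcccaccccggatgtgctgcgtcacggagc
Hspb1 holds 2 of these strings, Hsph1 holds 1, and in Hspe1 3 overlap in a single run, while neither window of Dnajb1 holds any. The Hspe1 window overlaps a window of its divergent neighbour Hspd1 by 215 bases, so the same run lies before both genes. One of the strings was found in 15.1% of all 32851 windows of 300 bases (these 250 and the 50 after the start). Counted by gene, where a gene with several windows has more chances, the share was 17.0% of 27025 genes. It was 13.8% of the 6057 tested genes with a window and 52.4%, 11 genes, of the 21 heat shock list members with a window that were called higher below. Among the 182 genes called higher outside those lists that had a window it was 17.0%. A match is a string of letters and not a shown binding site.

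Members were scarce in both homeostatic libraries and unequal between them. Their share was 10.2% in homeostatic MuSC 1 (exact 95% binomial interval 8.54 to 12.05) and 3.65% in homeostatic MuSC 2 (2.57 to 5.02), where the intervals cover counting error only. No cell reached the threshold in injured MuSC 1, injured MuSC 2 or primary myoblasts, 0 of 1168, 1735 and 4340 cells, which by a limit of 3 counts allows shares of up to 0.257%, 0.173% and 0.0691%. Cells of the homeostatic libraries that passed the gene and mitochondrial filters but not the myogenic rule reached the threshold in 23 of 76 (30.3%) and 12 of 64 cases (18.8%), so a high Hspa1 share is not confined to the cells called MuSCs here. As a measure of free RNA, 1 of 6 and 1 of 2 barcodes with at least 50% haemoglobin UMIs held any Hspa1a or Hspa1b UMI, at a median of 3242.5 and 3125 UMIs, too few barcodes for a useful share.

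Within the members the Hspa1 share had a long upper tail. The median share was 0.848% and 0.762%, with maxima of 15.1% and 8.50%. The lowest members stood at 0.306%, 0.308% and 0.309% in library 1 and 0.328%, 0.333% and 0.347% in library 2, and the highest remaining cells at 0.290%, 0.283% and 0.278% and at 0.299%, 0.285% and 0.282%. No gap lies at the threshold: 16 and 8 members had under 0.4%, and 36 and 17 remaining cells had at least 0.2%. The members held 86.0% and 72.9% of all Hspa1a and Hspa1b UMIs of the cells considered. UMIs of both genes were found in 100 of 122 and 29 of 36 members, with 11.1 and 8.82 Hspa1a UMIs for each of Hspa1b.

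**Figure D1:**
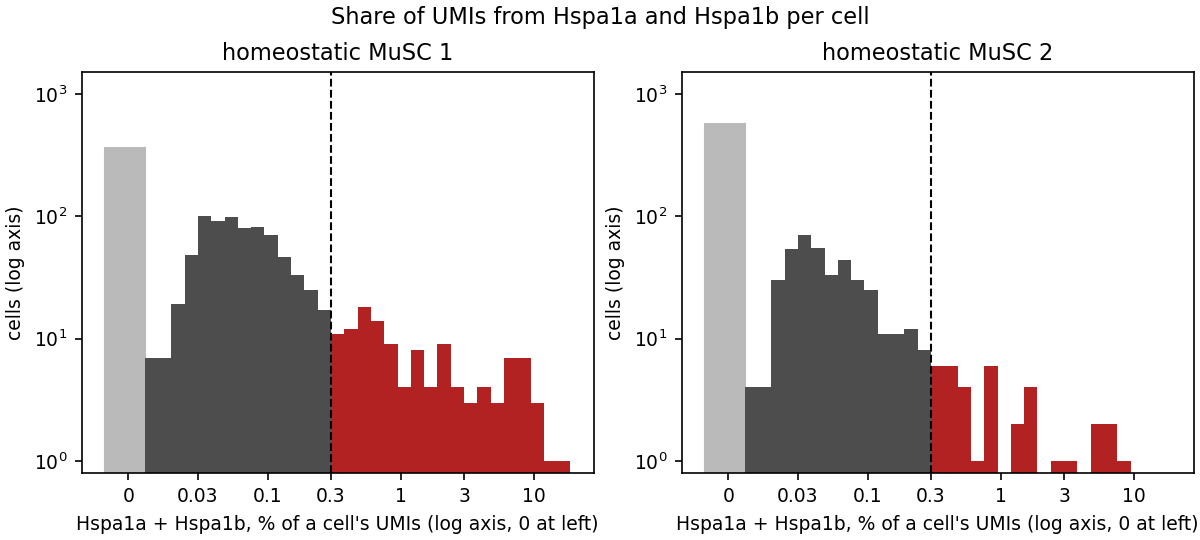
Histogram of the share of UMIs from Hspa1a and Hspa1b per cell (x, %, log axis with cells at 0 in a light grey bar at the left) and the number of cells (y, log axis) in homeostatic MuSC 1 and 2. The dashed line is the 0.3% threshold, and the red cells, 122 and 36, form the upper tail of a continuous distribution.

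The label was checked against cell type markers. Of the 158 members, 146 had more UMIs of the 12 myogenic markers than of any other marker list (112 of 122 and 34 of 36). That list holds the 5 myogenic genes of the rule, so the count is partly fixed by the choice of cells. With only the 7 myogenic markers outside the rule, these led in 92 of 122 (75.4%) and 26 of 36 members (72.2%), against 994 of 1075 (92.5%) and 894 of 949 remaining cells (94.2%), and 122 and 35 members had at least 1 of their UMIs. Fibro-adipogenic markers led in 7 and 2 members and mural markers in 3 and 0, while other lists led in 24 of 1075 and 16 of 949 remaining cells. In these counts, and in those of total muscle below, a tie with the myogenic list is counted as a lead of the other list. The summed myogenic markers took 0.591% and 0.570% of the members' UMIs against 0.978% and 1.10% of the remaining cells'. The fibro-adipogenic markers took 0.132% and 0.504% against 0.108% and 0.113%, and the mural markers 0.0451% and 0.0542% against 0.0271% and 0.0227%. All 3 neutrophil markers, 4 of 6 immune markers (Ptprc, Cd52, Coro1a and Laptm5) and 4 of 6 endothelial markers (Pecam1, Kdr, Cldn5 and Egfl7) had 0 UMIs in the members of both libraries, Ptprc and Pecam1 by the rule. Each of these genes also had at most 5 UMIs per library in the far more numerous remaining cells. Zeros in the members therefore cannot serve as a check of the label. Genes that lost their call when only myogenic-led cells were kept are given with their log2 difference and adjusted p there; a lost call with a like difference does not show that other cell types carried it.

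Members were slightly shallower than the remaining cells and had fewer detected genes. The median was 2460 and 2428.5 UMIs per member against 2623 and 2875 per remaining cell, and 983.5 and 985.5 against 1126 and 1182 detected genes. With every cell thinned to 1000 UMIs, the medians were 522 and 514 against 567 and 570 genes. The 4 sums held 321752 and 105218 UMIs of members and 2910683 and 2754510 of remaining cells, so library 2 gave the less precise values. Median mitochondrial shares were 1.20% and 1.05% against 1.25% and 1.15%. The homeostatic libraries shared 3 barcodes, and 2 members of library 1 had a barcode found in another library.

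The genes that chose the cells had these levels, in CPM (the usual counts-per-million scale, here of the UMIs of tested genes with TMM scaling), given here and below for library 1 and then library 2. Hspa1a stood at 28502 and 15168 CPM in members against 441 and 212 in the remaining cells, and Hspa1b at 2559 and 1719.5 against 67.1 and 29.2. Myod1, the myogenic determination factor that rises on activation, had 1026 and 653 CPM in members and 1853 and 1891 in the remaining cells. Des, the muscle intermediate filament gene, had 775 and 739.7 against 1055 and 1117. Chrdl2 (396 and 576 against 369 and 384) and Cdh15 (170.3 and 96.1 against 111 and 75.9) were higher in members of both libraries, and Myf5 (264 and 183 against 209 and 271) differed in direction between the libraries. None of these was tested, since at least 1 of their UMIs, or their absence, was required.

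For all other genes, UMIs of members and of remaining cells were summed per library and compared with edgeR's quasi-likelihood test with the library as a block (n = 2 libraries, Benjamini-Hochberg adjusted p under 0.05). Of 7854 genes tested, 280 were higher in members (3.57%) and 368 lower (4.69%), together 8.25%. The median log2 difference over all tested genes was -0.04, 232 of the higher and 184 of the lower genes differed by over 2-fold, and 273 and 367 went the same way in both libraries. Members were split off by the level of 2 genes in the same cells, so genes that vary with Hspa1a from cell to cell appear here whatever the source of that variation. The counts were smaller, 150 and 204, among myogenic-led cells alone, 80 and 56 by DESeq2, and 89 and 53 after thinning.

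**Figure D2:**
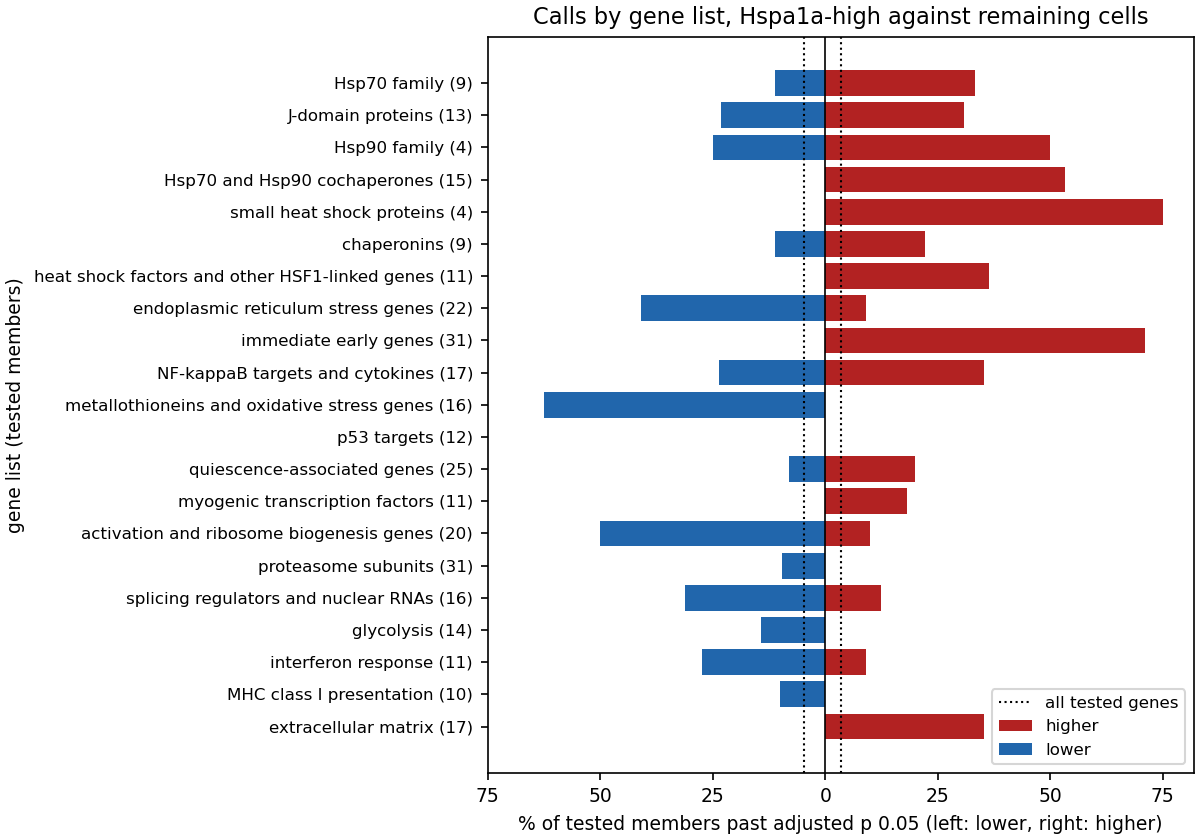
Share of the tested members of each gene list (y, with the number tested) that were called higher (red, right) or lower (blue, left) in Hspa1a-high against remaining cells (x, %). Dotted lines are the shares over all tested genes, 3.57% and 4.69%; immediate early genes reach furthest right among lists of over 10 genes, and metallothionein and oxidative stress genes furthest left.

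Part of the chaperone genes outside the rule were higher in members. Over the 7 heat shock lists, 26 of 65 tested genes were higher, 6 lower and 33 not called, beside 3.57% and 4.69% of all genes, and the median log2 difference was 0.20. In all 26 higher genes both member sums lay above both remaining sums, and 22 differed by over 2-fold. Over all 280 genes called higher these counts were 267 and 232, so neither is particular to the chaperone genes. The set kept 24 of these 26 calls among myogenic-led cells, 21 of the 25 to which DESeq2 gave an adjusted p, and 19 of 25 after thinning.

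J-domain proteins, the partners that load clients on Hsp70, held the largest difference of the lists. Dnajb1, the main inducible partner of cytosolic Hsp70, had 7217 and 4563 CPM in members against 268 and 141 in the remaining cells. Both member sums were far above both others (log2 difference 4.88 ± 0.12, 29.4-fold, adjusted p = 1.31e-54). Thinned to 1000 UMIs per cell, library 1 had a Dnajb1 UMI in 71.9% of members (exact 95% interval 63.0 to 79.7) and 20.7% of remaining cells (18.3 to 23.2), or 85.2% and 39.3% unthinned. Library 2 had one in 55.6% of members (exact 95% interval 38.1 to 72.1) and 12.8% of remaining cells (10.7 to 15.1), or 66.7% and 26.1% unthinned. Thinning left out 1 and 0 shallower members and 20 and 24 remaining cells, and no cell type that lacks the gene was at hand for a background share. Dnaja4 had 1196 and 1306 CPM against 101 and 90.3 (log2 difference 3.696 ± 0.16, adjusted p = 8.08e-36). Dnaja1, a farnesylated cytosolic partner, had 3991 and 4573 against 750.2 and 719.7 (log2 difference 2.54 ± 0.11), and Dnajb4 497 and 355 against 90.2 and 95.9 (log2 difference 2.23 ± 0.20). These 4 of 13 were higher and 3 were lower: Dnajb9 (-0.84 ± 0.19), Dnajb11 (-0.68 ± 0.23) and Dnajc3 (-0.58 ± 0.17), whose proteins work with the Hsp70 of the endoplasmic reticulum. Their log2 differences in library 1 and 2 were -1.11 and -0.42, -0.83 and -0.38 and -0.48 and -0.70. Among myogenic-led cells Dnajb9 was still called, and Dnajb11 (-0.66, adjusted p = 0.13) and Dnajc3 (-0.52, adjusted p = 0.0909) were not. Dnaja2 (-0.58 ± 0.20), Dnajb2 (0.61 ± 0.30), Dnajb6 (-0.27 ± 0.18) and Dnajc7 (-0.01 ± 0.40) did not pass.

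Among the Hsp70 family, 3 of 9 tested genes were higher and 1 lower. Hsph1, an Hsp110 exchange factor, had 3473 and 3353 CPM in members against 482 and 467 in the remaining cells (log2 difference 2.85 ± 0.12, 7.19-fold, adjusted p = 2.48e-37). Hspa4l, its relative, had 177 and 173 against 48.9 and 31.1 (log2 difference 2.09 ± 0.30). Hspa8, the constitutive cytosolic Hsp70, was already at 6691 and 6436 CPM in the remaining cells and stood at 17750.2 and 15284 in members (log2 difference 1.33 ± 0.08, adjusted p = 7.04e-25). The family was not higher throughout: Hspa9, the mitochondrial Hsp70, was lower (275 and 327 against 484 and 564 CPM, log2 difference -0.81 ± 0.17). Hspa5, the Hsp70 of the endoplasmic reticulum, had 5406 and 6599.5 against 7585 and 6192 CPM and did not pass (adjusted p = 0.196), nor did Hspa4 (-0.0031 ± 0.22) or Hspa13 (0.16 ± 0.36).

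Both cytosolic Hsp90 genes were higher, and the Hsp90 of the endoplasmic reticulum was lower. Hsp90aa1, the inducible form, had 8521 and 7800.3 CPM against 2491 and 2585 (log2 difference 1.69 ± 0.09, adjusted p = 6.38e-28), and Hsp90ab1, the constitutive form, 7585 and 7032 against 2776 and 2837 (log2 difference 1.38 ± 0.09). Hsp90b1 had 768 and 989 against 1321 and 1246 (log2 difference -0.58 ± 0.13, adjusted p = 0.00109). The cytosolic and reticular forms thus stood on opposite sides in both libraries.

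Cochaperones were higher in 8 of 15 cases and lower in none. Bag3, which links Hsp70 to autophagy, had 1578 and 1124 CPM against 317 and 271 (log2 difference 2.195 ± 0.14, adjusted p = 6.28e-24), and Cacybp 654 and 461 against 101 and 111 (log2 difference 2.42 ± 0.19). Ahsa1, the activator of the Hsp90 ATPase, differed by 1.33 ± 0.22, Chordc1 by 1.25 ± 0.36, Ahsa2 by 1.02 ± 0.29, Stip1, the adaptor between Hsp70 and Hsp90, by 0.99 ± 0.19, St13 by 0.95 ± 0.19 and Fkbp4 by 0.66 ± 0.22 on the log2 scale. The size depended on the library for 3 of them: Ahsa1 differed by 1.71 and 0.70 in library 1 and 2, Chordc1 by 1.58 and 0.61 and Fkbp4 by 0.92 and 0.23. Among myogenic-led cells Fkbp4 (0.66, adjusted p = 0.11) and Chordc1 (1.34, adjusted p = 0.056) kept their difference and missed the threshold. The uncalled Ptges3 (0.18 ± 0.18), Bag1 (-0.04 ± 0.30), Cdc37 (-0.03 ± 0.25) and Stub1 (-0.21 ± 0.36) lay near 0.

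Small heat shock proteins, ATP-independent holdases, had the highest median of the chaperone lists (2.44), with 3 of 4 tested genes higher. Hspb1 had 17027 and 12056 CPM in members against 1520.4 and 1563 (log2 difference 3.22 ± 0.10, 9.31-fold, adjusted p = 4.60e-47). Hspb8, the partner of Bag3, had 90.4 and 221 against 15.7 and 7.77 (log2 difference 3.51 ± 0.43), and Cryab, abundant in muscle, 2128 and 3669.6 against 1022 and 1151 (log2 difference 1.36 ± 0.12). Hspb8 and Cryab were highest in members of library 2, and Hspb1 in those of library 1.

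Chaperonins divided by compartment. The mitochondrial pair that shares the divergent promoter was higher: Hspd1 had 3177 and 2315 CPM against 504 and 605 (log2 difference 2.32 ± 0.13, adjusted p = 1.27e-28), and its lid Hspe1 6998 and 6359 against 846 and 827 (log2 difference 2.996 ± 0.10, adjusted p = 1.11e-42). No subunit of the cytosolic TRiC ring was higher. Cct3 was lower (log2 difference -0.59 ± 0.17; -0.53, adjusted p = 0.11 among myogenic-led cells), and Cct2 (0.02 ± 0.21), Cct4 (0.04 ± 0.18), Cct5 (-0.38 ± 0.18), Cct7 (-0.06 ± 0.17), Cct8 (-0.52 ± 0.19) and Tcp1 (-0.29 ± 0.21) did not pass.

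Of 11 other genes linked to HSF1, 4 were higher and none lower. Serpinh1, the collagen chaperone Hsp47, had 2124 and 2795 CPM against 733 and 629 (log2 difference 1.83 ± 0.12, adjusted p = 6.89e-23). Ubb, a polyubiquitin gene, had 12901 and 8819 against 5836 and 5398 (log2 difference 0.93 ± 0.09), P4ha1, a collagen prolyl hydroxylase, 355 and 375 against 161 and 165 (log2 difference 1.16 ± 0.19), and Dedd2 34.8 and 28.8 against 4.19 and 4.81 (log2 difference 2.87 ± 0.66). Jmjd6 (0.73 ± 0.32), Ier5 (-0.26 ± 0.13) and Hsbp1 (-0.06 ± 0.26) did not pass. Over all heat shock lists, the 33 tested genes that were not called ranged from a log2 difference of -0.58 to 1.66, 14 above and 19 below 0. Of the genes named in these paragraphs, Dnaja1, Hspa8, Hspa9, Hsp90aa1, Hspb1, Hspd1, Hspe1, Ahsa1, Dnajb6, Dnajb9, Fkbp4, Dedd2 and Ubb have near-identical stretches in other transcripts, so their values are uncertain. The same holds for Prdx1, Gclm, Ccnd3, Srsf5, Psmd11, Psma3, Ldha, H2-D1, Rrp7a, Timm23 and Hacd1 below.

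**Figure D3:**
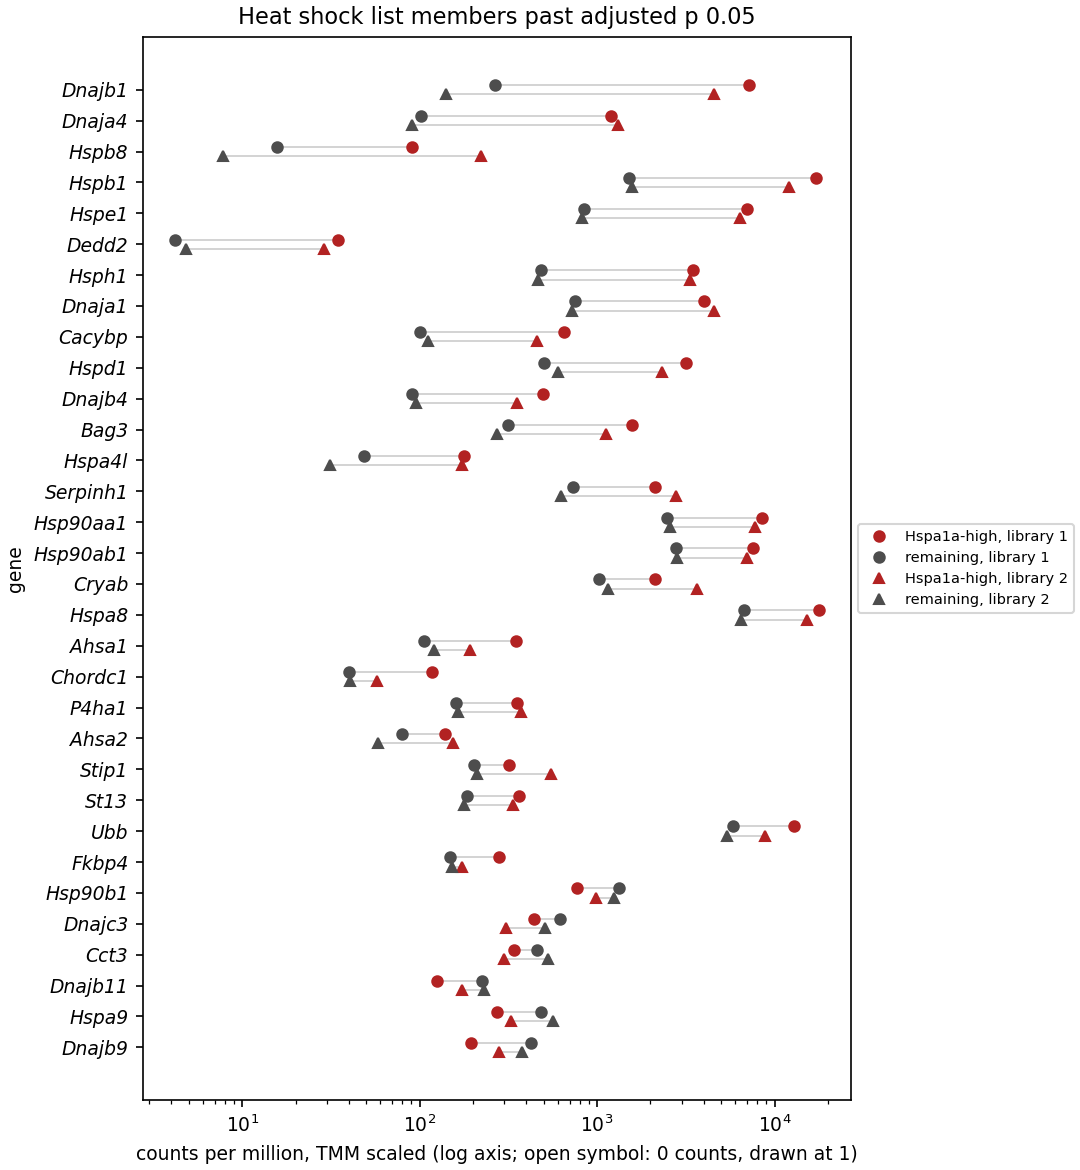
Level (x, CPM, log axis) of each heat shock list member called in either direction (y, by log2 difference) in Hspa1a-high (red) and remaining cells (grey) of homeostatic MuSC 1 (circles) and 2 (triangles), with a line joining the classes of 1 library. Red lies right of grey in both libraries for the 26 higher genes, led by Dnajb1, and left of it for the 6 lower genes.

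Immediate early genes, which cells transcribe within minutes of a stimulus without new protein synthesis, were higher together. Of 31 tested, 22 were higher and none lower, with a median log2 difference of 1.53, 20 were still called among myogenic-led cells, and DESeq2 called 14. At an unadjusted p under 0.05, 27 were higher and 1 lower. Fos, an AP-1 subunit, had 3553 and 3410.2 CPM in members against 425 and 215 (log2 difference 3.502 ± 0.13, adjusted p = 5.90e-40). Its partner Jun had 2739 and 2354 against 482 and 329.5 (log2 difference 2.66 ± 0.13), Jund 3918 and 2689.8 against 1182 and 811 (log2 difference 1.73 ± 0.11) and Junb 3998 and 3045 against 1304 and 1128 (log2 difference 1.53 ± 0.11). Nr4a1, an orphan nuclear receptor, had 657 and 423 against 61.5 and 31.5 (log2 difference 3.54 ± 0.21, adjusted p = 1.23e-26). In these 5 genes both member sums exceeded both remaining sums, as in 267 of all 280 genes called higher.

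Further members of that list were picked for the text after their values were seen. Atf3, a stress-induced repressor, had 897 and 480.3 CPM against 129 and 83.3 (log2 difference 2.69 ± 0.18), Fosb 1575 and 1076 against 334 and 238 (log2 difference 2.21 ± 0.14), and Egr1, a zinc finger factor, 2402 and 1777 against 728 and 546 (log2 difference 1.71 ± 0.12). Zfp36, which degrades mRNAs of cytokines, differed by 1.77 ± 0.18, Gadd45g by 1.72 ± 0.26 and Socs3 by 1.14 ± 0.26. Klf2 rested on library 1, with 212 and 9.61 CPM against 36.3 and 28.5, so lower in members of library 2, and was not called among myogenic-led cells (1.44, adjusted p = 0.177). Cyr61, with 1234 and 403 against 207 and 298, differed more in library 1. After the same thinning, a Fos UMI was found in library 1 in 54.5% of members (exact 95% interval 45.2 to 63.6) and 22.8% of remaining cells (20.3 to 25.5), or 71.3% and 39.2% unthinned. In library 2 one was found in 47.2% of members (exact 95% interval 30.4 to 64.5) and 13.0% of remaining cells (10.9 to 15.3), or 63.9% and 28.5% unthinned. A thinned Egr1 UMI was found in library 1 in 71.1% of members (62.1 to 79.0) and 42.1% of remaining cells (39.1 to 45.1). In library 2 the Egr1 intervals overlapped, at 41.7% (25.5 to 59.2) and 34.6% (31.5 to 37.8).

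Genes associated with satellite cell quiescence were higher in 5 and lower in 2 of 25 cases. Hes1, the Notch target that restrains differentiation, had 706 and 86.5 CPM against 40.5 and 24.1 (log2 difference 3.52 ± 0.27, adjusted p = 1.03e-19), a difference much larger in library 1. Gas1, a membrane protein of arrested cells, had 737 and 279 against 105 and 64.4 (log2 difference 2.56 ± 0.20, adjusted p = 5.29e-19). Pax7, the transcription factor that marks satellite cells, had 143 and 115 against 34.2 and 23.7 (log2 difference 2.13 ± 0.35, adjusted p = 1.94e-06), higher in members of both libraries. Sdc4, a heparan sulphate proteoglycan of satellite cells, was lower at 2287 and 1921 against 4758 and 5472 (log2 difference -1.27 ± 0.10, adjusted p = 5.30e-18), as was the adhesion receptor Vcam1 at 751 and 845 against 1089 and 1466 (log2 difference -0.65 ± 0.13). Over all tested genes 3.57% were higher and 4.69% lower, so the 2 lower genes of this list are not far from that share. At an unadjusted edgeR p under 0.05, 8 genes of the list were higher and 3 lower. Calcr (1.505 ± 0.41) and Fgfr4 (1.301 ± 0.27), receptors of resting satellite cells named after their values were seen, were higher, but Calcr did not pass among myogenic-led cells (1.33, adjusted p = 0.104).

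Among 11 tested myogenic transcription factors outside the rule, Pax7 and Id3, an inhibitor of basic helix-loop-helix factors, were higher and none was lower. Id3 had 1954 and 1508 CPM against 1293 and 1146 (log2 difference 0.50 ± 0.12) and did not pass among myogenic-led cells (0.37, adjusted p = 0.133). Pax7 rested on 41 and 12 UMIs in members and 98 and 64 in the remaining cells, which limits its precision.

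Genes of ribosome biogenesis and activation were lower in 10 and higher in 2 of 20 cases, with a median of -1.04. Ncl, nucleolin, had 667 and 711 CPM in members against 1520.4 and 2003 (log2 difference -1.32 ± 0.13, adjusted p = 4.10e-14). Odc1, the rate-limiting enzyme of polyamine synthesis, had 601 and 528 against 1374 and 1645 (log2 difference -1.38 ± 0.14). Npm1, nucleophosmin, had 511 and 730.1 against 939 and 1359 (log2 difference -0.89 ± 0.14), and Nop56, a box C/D ribonucleoprotein, 236 and 231 against 433 and 547 (log2 difference -1.02 ± 0.18). All 4 have near-identical stretches in other transcripts. Nhp2 (104 and 106 against 342 and 426, log2 difference -1.82 ± 0.22), a box H/ACA protein, Wdr43 (-1.42 ± 0.20) and Rrs1 (-1.33 ± 0.22) were named after their values were seen. The 2 higher members were the cyclins Ccnd3 (111 and 57.6 against 25.9 and 17.8, log2 difference 1.99 ± 0.40) and Ccnd1 (108 and 86.5 against 48.6 and 38.1, log2 difference 1.16 ± 0.35), chosen likewise, and Ccnd1 was not called among myogenic-led cells (1.13, adjusted p = 0.0858).

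Metallothionein and oxidative stress genes were lower in 10 of 16 cases and higher in none (median -0.89), also at an unadjusted p under 0.05. All 10 were called among myogenic-led cells as well, and 7 by DESeq2. Mt2, a metal-binding metallothionein, had 6118 and 4639.8 CPM in members against 13779 and 13430.0 (log2 difference -1.35 ± 0.09, adjusted p = 1.16e-23), and Mt1 8729 and 7214 against 13835 and 10485 (log2 difference -0.60 ± 0.08). Hmox1, haem oxygenase, had 932 and 1383 against 2576 and 3213 (log2 difference -1.35 ± 0.12), and the peroxiredoxin Prdx1 591 and 509 against 949 and 1235 (log2 difference -0.94 ± 0.15). Further genes controlled by Nrf2, named after their values were seen, were Txnrd1 (-1.43 ± 0.15), Gclm (-1.39 ± 0.19) and the cystine transporter gene Slc7a11, at 3.48 and 0 CPM against 36.0 and 53.3. In all 10 lower genes both member sums lay below both remaining sums, as they did in 366 of all 368 genes called lower.

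Endoplasmic reticulum stress genes were lower in 9 and higher in 2 of 22 cases (median -0.57), and DESeq2 called 2 lower and 1 higher. Manf, a secreted protein of the reticulum, had 379 and 413 CPM against 1031 and 916 (log2 difference -1.32 ± 0.15, adjusted p = 5.20e-11). Hsp90b1 (above) and the lectin chaperone Calr (514 and 461 against 758 and 668, log2 difference -0.55 ± 0.15) were also lower, the latter not called among myogenic-led cells (-0.54, adjusted p = 0.0544). The disulphide isomerase Pdia6, named after its values were seen, had 243 and 231 against 777 and 699.7 (log2 difference -1.65 ± 0.17). Ppp1r15a, the phosphatase subunit that reverses the integrated stress response, went the other way, at 1676 and 1143 against 705 and 633 (log2 difference 1.07 ± 0.13, adjusted p = 3.76e-10), and Ddit3, the CHOP gene, chosen after its values were seen, had 97.3 and 76.9 against 49.3 and 29.6 (adjusted p = 0.045). Among myogenic-led cells 7 genes of the list were lower and 1 higher, Ppp1r15a but not Ddit3. None of 12 tested p53 targets was called by edgeR or by DESeq2, and at an unadjusted p under 0.05 edgeR put 4 higher and 1 lower. Cdkn1a stood at 963 and 817 against 860.0 and 562 CPM (adjusted p = 0.144) and Gadd45a at 466 and 384 against 536 and 549.8 (adjusted p = 0.224).

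NF-kappaB targets and cytokines went both ways, 6 higher and 4 lower of 17, of which DESeq2 called 1 in each direction. The neutrophil chemokine genes Cxcl1 (3410.3 and 3833 CPM against 6463 and 9949, log2 difference -1.14 ± 0.10, adjusted p = 1.26e-17) and Cxcl2 (900.4 and 375 against 1156 and 2563, log2 difference -1.32 ± 0.18) were lower, and Cxcl2 did not pass among myogenic-led cells (-1.22, adjusted p = 0.0918). Nfkbia, the feedback inhibitor of NF-kappaB, was higher by 0.49 ± 0.13 (0.46, adjusted p = 0.0557 among myogenic-led cells). Ccl2, a monocyte chemokine, had 747 and 2939.5 against 629 and 720.5 (log2 difference 1.15 ± 0.16), a difference carried by library 2. At thresholds of 0.5% and 1% edgeR called Ccl2 lower instead, by -1.05 (adjusted p = 0.000126) and -1.61 (adjusted p = 1.52e-06). Among myogenic-led cells Ccl2 was not called (1.26, adjusted p = 0.0549). Cxcl10, Icam1 and Birc3, named after their values were seen, were higher by 2.56 ± 0.33, 1.48 ± 0.35 and 1.201 ± 0.26. Cxcl10 differed by 1.803 and 3.66 in library 1 and 2, and Icam1 by -0.30 at a threshold of 1%.

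Other lists held fewer calls, to be read beside 3.57% of all genes higher and 4.69% lower. For proteasome, glycolysis and class I presentation genes the counts of adjusted calls are small and not far from these shares. At an unadjusted edgeR p under 0.05, 13 of 31, 4 of 14 and 3 of 10 of them were lower and 0 higher. Interferon response genes were lower in 3 and higher in 1 of 11 cases: Irf1, an early factor, had 111 and 76.9 CPM against 18.2 and 10.0 (log2 difference 2.71 ± 0.45), while Ifitm3 (-1.04 ± 0.13), Gbp2 (-1.196 ± 0.25) and Ifi35 (-1.76 ± 0.51) were lower. Splicing regulators were lower in 5 and higher in 2 of 16 cases, among them Srsf2 (-0.73 ± 0.15), Srsf7 (-0.58 ± 0.15) and Srsf5 (-0.52 ± 0.14), and the nuclear RNA Malat1 was higher by 0.36 ± 0.06. Proteasome subunits, some of which HSF1 controls in other settings, were higher in none and lower in 3 of 31 cases (Psmd11 -0.83 ± 0.18, Psmd7 -0.68 ± 0.22, Psma3 -0.63 ± 0.16). Their median log2 difference was -0.40, beside -0.04 over all tested genes. Glycolysis genes were lower in 2 of 14 (Ldha -0.70 ± 0.18, Hk2 -0.67 ± 0.18) and class I presentation genes in 1 of 10 (H2-D1 -0.45 ± 0.13). Ifi35 differed by -2.27 and -0.76, H2-D1 by -0.64 and -0.21 and Malat1 by 0.48 and 0.24 in library 1 and 2. Not called among myogenic-led cells were Srsf7 (-0.52, adjusted p = 0.0593), Srsf5 (-0.45, adjusted p = 0.0837), Psmd7 (-0.63, adjusted p = 0.114), Psma3 (-0.57, adjusted p = 0.0551), Hk2 (-0.58, adjusted p = 0.0804), Ifi35 (-1.68, adjusted p = 0.0977) and H2-D1 (-0.43, adjusted p = 0.1). DESeq2 called no splicing, proteasome, glycolysis or class I presentation gene in either direction.

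**Figure D4:**
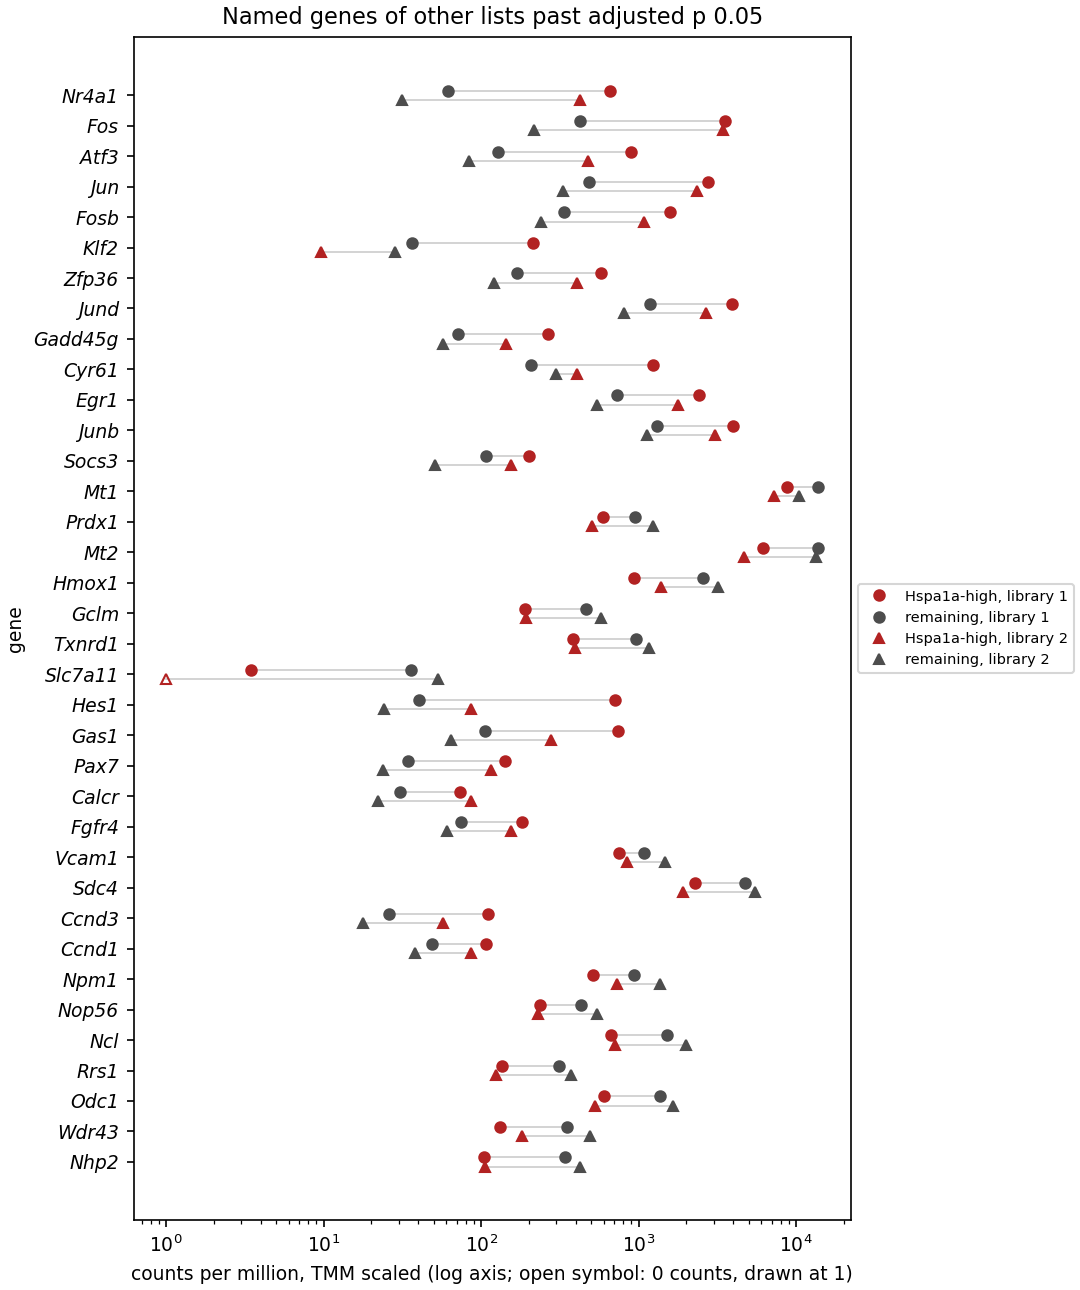
Level (x, CPM, log axis; an open symbol is 0, drawn at 1) of genes named in the text (y, grouped as early, oxidative stress, quiescence and biogenesis genes) in Hspa1a-high (red) and remaining cells (grey) of homeostatic MuSC 1 (circles) and 2 (triangles). Early genes have red to the right, except Klf2 in library 2, and oxidative stress genes have red to the left in both libraries.

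Extracellular matrix genes were higher in 6 of 17 cases, and only 1 of 16 was called among myogenic-led cells and 1 by DESeq2. Col3a1, a fibrillar collagen and also a fibro-adipogenic marker, had 448 and 826 CPM against 238 and 221 (log2 difference 1.38 ± 0.18; adjusted p = 0.00892 in myogenic-led cells). Sparc (681 and 836 against 472 and 362), Col4a1 (174 and 461 against 174 and 141) and Col1a2 (24.3 and 279 against 28.7 and 48.5) had there log2 differences of 0.49, 0.42 and 0.82, with adjusted p = 0.103, 0.45 and 0.664. Of the fibro-adipogenic markers 3 of 4 tested were higher, among them Col3a1, which is on both lists. Their summed level was 0.504% of UMIs in members of library 2 against 0.132% in those of library 1. Single markers had these UMIs in members: Dcn 19 and 185, Lum 1 and 35, Smoc2 0 and 26, Col1a1 1 and 24, Gsn 273 and 174, Pdgfra 1 and 0. The far more numerous remaining cells had 429 and 381, 4 and 5, 5 and 8, 93 and 108, 1929 and 2002, and 3 and 0. As a share of the summed UMIs, Dcn and Col1a1 were thus lower in members of library 1 and higher in those of library 2. Col3a1 and Gsn were higher in members of both libraries. Of the mural markers 1 of 3 tested was higher. Members had 48 and 14 UMIs of Rgs5, 49 and 26 of Acta2, 46 and 14 of Notch3, 2 and 3 of Pdgfrb and 0 of Myh11. The remaining cells had 115 and 79, 375 and 321, 278 and 210, 13 and 11, and 9 and 3. Clec3b has the largest log2 difference of all genes the naming rule covers (13.9 and 154 CPM against 1.75 and 2.22, log2 difference 5.06 ± 0.66). It was highest in members of library 2 and too low for the test in myogenic-led cells. Cxcl14, chosen after its values were seen, was also highest in members of library 2 (3.48 and 298 against 11.5 and 9.26). Among myogenic-led cells its log2 difference was -0.77. The part of fibro-adipogenic or mural RNA in these results was not tested.

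The largest differences outside the lists include further genes in each direction. Higher were the receptor ligand gene Tnfsf9 (31.3 and 76.9 CPM against 5.94 and 1.85, log2 difference 3.44 ± 0.64), Bmyc (93.9 and 28.8 against 8.74 and 4.81, log2 difference 3.203 ± 0.55), Txnip, which binds thioredoxin (118 and 57.6 against 13.6 and 8.15, log2 difference 3.02 ± 0.48), and Abhd8 (41.7 and 76.9 against 6.99 and 6.29, log2 difference 2.998 ± 0.57). These 4 were also called among myogenic-led cells. Lower were Rrp7a, a ribosomal RNA processing gene (10.4 and 0 against 52.1 and 63.7, log2 difference -2.86 ± 0.66), the actin nucleator gene Spire1 (13.9 and 19.2 against 84.6 and 97.0, log2 difference -2.51 ± 0.48), and the chemokine genes Cxcl5 (31.3 and 28.8 against 124 and 279.9, log2 difference -2.45 ± 0.34) and Cxcl3 (66.1 and 48.0 against 246 and 447, log2 difference -2.33 ± 0.26). Zfp263 (-2.36 ± 0.62), Jagn1 (-2.28 ± 0.56), Timm8a1 (-2.19 ± 0.47) and Hacd1 (-2.18 ± 0.44) followed and were also called among myogenic-led cells. Procr (-2.29 ± 0.54), Timm23 (-2.22 ± 0.63), Ccl11 (-2.15 ± 0.38) and Otulin (-2.12 ± 0.64) were not. There Timm23 (-2.11, adjusted p = 0.0711) and Otulin (-2.01, adjusted p = 0.122) kept nearly the same difference, and that of Procr (-1.59, adjusted p = 0.438) and Ccl11 (-0.998, adjusted p = 0.412) was smaller. Jagn1 differed by -2.33 and -1.49, Ccl11 by -2.98 and -0.83 and Otulin by -2.98 and -0.82 in library 1 and 2. Heatr1, a factor of ribosomal RNA transcription chosen after its values were seen, had 0 UMIs in members of both libraries and 74 and 100 in the remaining cells, at least 4.08-fold lower against a floor of 3 counts over both member sums.

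Levels of these genes were also set against the Hspa1 share in steps, as a description with no test. The 5 bins were a share of 0, above 0 but under 0.1%, 0.1 to 0.3%, 0.3 to 1%, and 1% or more, with 357, 543, 175, 66 and 56 cells in library 1 and 562, 322, 65, 23 and 13 in library 2. In CPM taken without Hspa1a and Hspa1b, Dnajb1 stood at 194, 223, 560.3, 2268 and 10681 in library 1 and at 113, 148, 338, 2324 and 8094 in library 2. Levels were thus already above those of cells without Hspa1 UMIs in the bin just under the threshold. From the bin of 0 to that of 1% or more, Mt2 went from 14128 to 2192 and from 13221 to 2067, and Ncl from 1582 to 486 and from 2035 to 590.5. Myod1 stood at 2174 and 1868 without Hspa1 UMIs and at 474 and 615 in the top bin. The top bin of library 2 holds 13 cells.

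**Figure D5:**
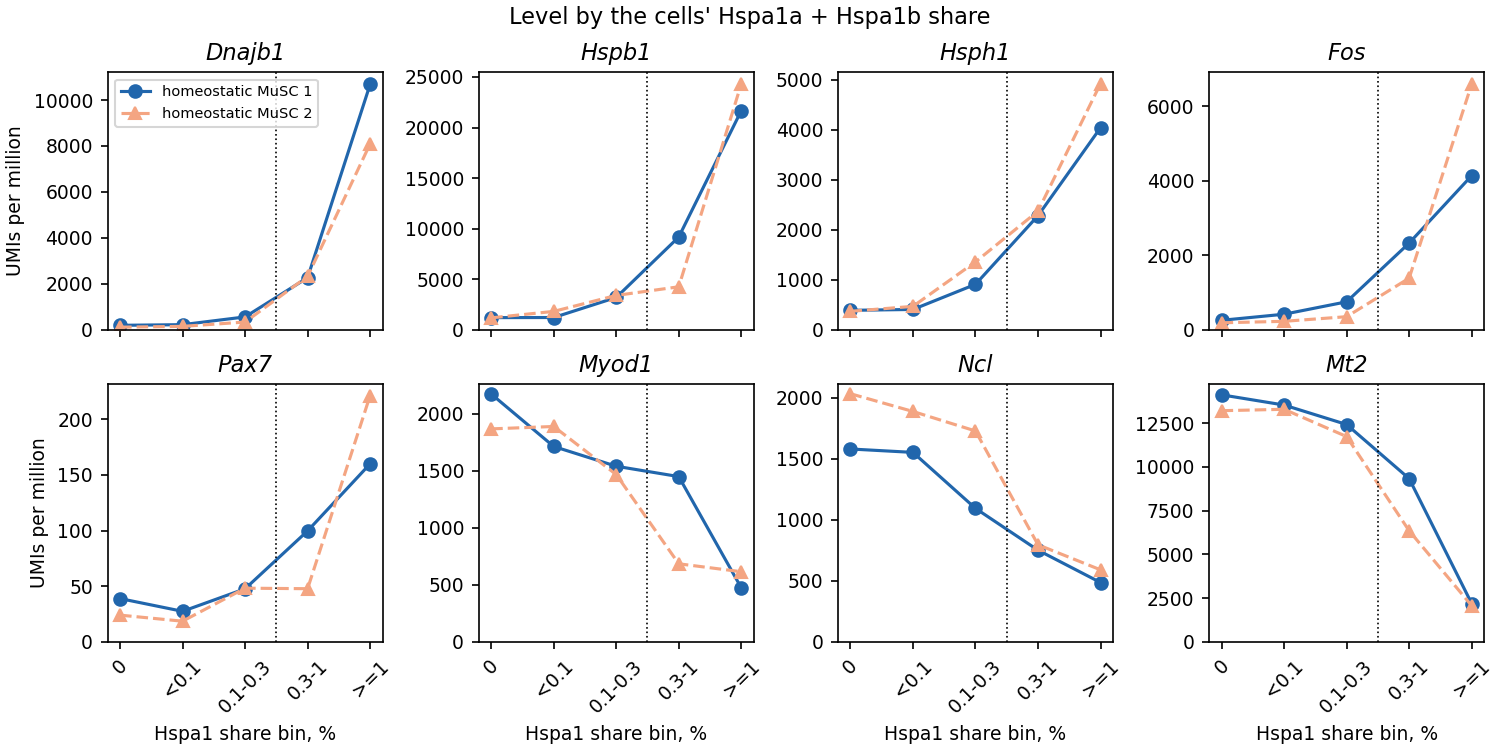
Level of 8 genes (y, CPM without Hspa1a and Hspa1b) in cells grouped by their Hspa1 share (x, 5 bins, %) in homeostatic MuSC 1 (blue circles) and 2 (orange triangles); the dotted line is the 0.3% threshold. Dnajb1, Hspb1, Hsph1 and Fos are highest, and Ncl and Mt2 lowest, in the bin of 1% or more in both libraries.

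The same rule was applied to total muscle, whose libraries did not choose the members. It found 26 of 195 cells (13.3%) and 29 of 260 (11.2%), but only 2 and 7 of them were led by myogenic markers. In 46 of 55 another list led or tied, so the label MuSC is not borne out for them. Fibro-adipogenic markers led in 14 and 12, mural markers in 5 and 5 and endothelial markers in 4 and 3. The remaining cells were made up otherwise: other lists led in 91 of 169 (53.8%) and 126 of 231 (54.5%), with myofibre markers in 31 and 51, against 1 and 0 of the members. In these mixed cells edgeR's quasi-likelihood test called 359 of 4980 genes higher (7.21%) and 324 lower (6.51%), and of the heat shock lists 17 of 59 higher and 5 lower. For the 2 and 7 myogenic-led cells there was no test, and CPM were taken over all genes, Hspa1a and Hspa1b included, without TMM scaling. In them Dnajb1 had 13 and 150 UMIs (2539.6 and 6780.3 CPM) against 155 and 63.6 CPM in the other myogenic-led cells. Fos stood at 6642 and 2260.1 against 327 and 242 CPM, and Myod1, used by the rule, at 195 and 859 against 2219.6 and 3412. With so few cells these values cover 1 or a few cells each.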

How the data were processed

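Droplet 3' single-cell libraries (7) of mouse muscle were used. The authors deposited raw UMI counts for 27998 genes per barcode, which the values show to be whole and unscaled. Seurat 2.3.4, Cell Ranger 2.2.0, bcl2fastq 2.17.1 and the mm10 build appear, without roles, in the submitters' processing notes. No doublet caller was run, and leaving out the 5% of cells with most UMIs was an alternative.

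Counts of Hspa1a-high and remaining cells were summed per library (4 sums), since cells of 1 library are not replicates. The sums were compared with edgeR 4.0.16 in R 4.3.3 (filterByExpr, TMM, quasi-likelihood test; called at a Benjamini-Hochberg adjusted p under 0.05). The library was a block, because both classes come from the same library. Standard errors are the log2 difference divided by the root of F. Genes used by the rule stayed out of the fit. The biological coefficient of variation was 12.4%. With 1 residual degree of freedom, the spread of single genes was largely set by that of all genes. The weight of that pooled spread (prior degrees of freedom) was 86.1 in the main fit and 10.8 among myogenic-led cells. Adjusted p-values and counts of calls therefore differ between these fits also where log2 differences are alike. The fit was tested on simulated data. Alternatives were DESeq2 1.42.0, no block, no TMM, no filter, other thresholds, filters and comparison cells, thinning to 1000 UMIs, and each library alone. Leaving out shared barcodes, keeping cells led by myogenic markers, and keeping cells with 0 UMIs of other cell types' markers were added after seeing the data. The last was run first and left few cells.

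Named genes are the heat shock list members that were called or had at least 50 CPM, the 12 largest rises and 12 largest falls of at least 50 CPM that went the same way in both libraries, and up to 4 called members of at least 30 CPM of each other list or else its 2 most abundant. The largest changes leave out predicted genes (Gm, Rik) and other classes' markers. Genes said to be named after their values were seen lie outside this rule. One gene that the rule names is not reported here. The members and lists were chosen with earlier results of these data known. Near-identical stretches are blastn 2.17.0 hits of the final 300 bases of a transcript, 90 bases or longer and 95% identical or more, to other GENCODE genes. They were found for 28 of the 143 genes searched. Analyses used Python 3.11.15, numpy 2.4.6, scipy 1.17.1 and pandas 2.3.3.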

Additional observations from a re-analysis of the deposited data

How the results depend on the processing

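The direction of Hspa1a-high against remaining cells held for most named genes, and the number called depended on the settings. The 280 higher and 368 lower genes became 186 higher without TMM, 174 higher without a filter on low counts, 111 and 245 at a threshold of 1%, 150 lower against remaining cells with 0 Hspa1 UMIs, 89 and 53 after thinning, 150 and 204 among myogenic-led cells, 80 and 56 by DESeq2, and 6 and 2 among the 20 and 5 members with 0 UMIs of other cell types' markers. Other thresholds and cell filters stayed within 1.5 times. As stated above, the thinned fit had other members, and both it and DESeq2 covered fewer genes. Without the replicate block, 217 were higher and 264 lower, 216 and 264 of them also called with the block; both classes share a library, which is where the pairing comes from. In total muscle the counts without the replicate block were 362 and 340. Of the 26 heat shock genes called higher, 19 to 26 with a value passed in each alternative other than the members with 0 UMIs of other markers, where 3 of 22 did. Leaving out 1 library left no residual degrees of freedom and gave no count. Of 118 named genes called, 1 reversed without library 1 and 2 reversed without library 2. Another 18 and 8 lay at least 1 standard deviation of the 2 library values from the fit. That standard deviation grows with the difference between the libraries, so these 2 counts cannot show stability.

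The member share was 13.2%, 7.85% and 4.68% in homeostatic MuSC 1 at thresholds of 0.2%, 0.5% and 1%, and 13.0% after thinning. In homeostatic MuSC 2 it was 5.38%, 2.34% and 1.32%. In total muscle 1 and 2 it was 8.72% and 6.92% at 1%, 2.50% and 6.25% among myogenic-led cells, and 5.43% in total muscle 1 with at least 2 myogenic UMIs.

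Log2 differences of the genes listed here changed sign, and the cause was not tested. Ccl2, Col1a2, Col4a1, Cxcl14, Dnajc3, Hmox1, Icam1, Id3, Klf2, Sparc and Vcam1 were called in the main fit. The others were not called there, and most of those others lay near 0. The genes were, at a threshold of 0.2%, Bag1 0.0414, Cct7 0.0330, Cdc37 0.0904 and Dnajc7 0.23. At 0.5% they were Bag1 0.21, Ccl2 -1.05, Cct2 -0.16 and Hspa4 0.14. At 1% they were Bag1 0.32, Ccl2 -1.61, Cct2 -0.33, Col1a2 -1.24, Cxcl14 -1.36, Hsbp1 0.10, Hspa13 -0.72 and Icam1 -0.30. Against remaining cells with 0 Hspa1 UMIs they were Cct7 0.0443, Cdc37 0.0374, Dnajc7 0.0840, Hsbp1 0.0165 and Hspa4 0.0232. After thinning they were Cct2 -0.13, Cct7 0.0757, Dnajc7 0.00438, Hspa13 -0.0292 and Stub1 0.24. Without the 5% of cells with most UMIs they were Cct2 -0.0591, Cdc37 0.0871, Col1a2 -0.73, Cxcl14 -1.90 and Hspa4 0.10. With at least 2 myogenic UMIs they were Bag1 0.00884, Cct2 -0.00818, Cdc37 0.00658 and Dnajc7 0.0166, and with at least 200 detected genes Bag1 0.0268 and Cct4 -0.0137. Without a filter on low counts they were Cct2 -0.11 and Cct4 -0.0895, without TMM Cct2 -0.0266, without the replicate block Hspa4 0.0169 and by DESeq2 Cdc37 0.00248. Among myogenic-led cells they were Cxcl14 -0.77, Dnajc7 0.0350 and Hspa4 0.0190. Among cells with 0 UMIs of other markers they were Ccl2 -0.24, Cct2 -0.93, Cct4 -0.54, Cct7 0.39, Col4a1 -0.77, Dnaja2 0.0925, Dnajc3 0.0976, Dnajc7 0.24, Hmox1 0.0502, Hsbp1 0.0288, Id3 -0.15, Ier5 0.0798, Sparc -0.87, Stub1 0.0799 and Vcam1 0.49. Without homeostatic MuSC 1 it was Klf2 -0.99 (2.55 without the other), and without homeostatic MuSC 2 Col1a2 -0.14 and Cxcl14 -1.17 (2.54 and 5.00 without the other). The 36 members of library 2 limit what depth can resolve.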
